A study of Mus musculus with 6 samples.

Results

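Costimulatory and coinhibitory surface molecules of BV2 microglial cells were compared between cells with and without overexpression of PGC-1α, a transcriptional coactivator best known for mitochondrial biogenesis, after lipopolysaccharide (LPS). The 9 genes are Cd80, Cd86, Icosl, Cd274, Pdcd1lg2, Tnfsf9, Cd40, Cd83 and Icam1. They were chosen by name, and each array probe whose transcript accession maps to 1 of them in the RefSeq mouse gene table was kept. This gave 15 probes among the 56605 probes of the array, of which 33793 matched a gene symbol and 23467 genes in all. Cd80 and Cd86 have 3 probes each, Icosl and Icam1 have 2 each, and the remaining members have 1.

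A T cell that meets its antigen needs a further signal from the antigen-presenting cell. The B7 family proteins CD80 and CD86 give it through CD28 and withdraw it through CTLA-4, ICOS ligand acts through ICOS, and PD-L1 and PD-L2 restrain the T cell through PD-1. TNF family members work alongside them: CD40 receives the signal of CD40 ligand, and 4-1BB ligand acts on 4-1BB. Resting microglia carry little of this machinery, and LPS is known to raise several of its members.

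The study asked how PGC-1α shapes microglial inflammation, and RNA of 6 BV2 samples was hybridized to 1-colour Agilent arrays, 1 RNA sample per array. The BV2 line consists of immortalized microglia of the mouse. The 3 control arrays are labelled as cells without PGC-1α and the 3 overexpression arrays as cells with it, all after LPS. In the culture methods, LPS was given at 500 ng/ml for 6 h, although that passage does not name the arrays. Those methods describe a lentiviral vector with a Ubi promoter that also encodes a FLAG tag, EGFP and puromycin resistance, and they name a negative control lentivirus. Overexpressing cells were selected with puromycin, and whether the control cells were selected too is not stated there. Neither the labels nor the methods say whether the replicates were separate cultures or transductions, so the p-values measure the spread between these samples, which may be technical. No unstimulated cells were analysed here, so a response to LPS cannot be read from these values.

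The arrays lay on 2 slides, with 2 arrays of each group on slide 1 and 1 of each on slide 2. Between 41122 and 45165 of 59305 spots other than controls were well above background. The 75th percentile of intensity was 1617 to 1893 among controls and 856 to 1268 with overexpression, and overexpression replicate 2 was the dimmest of the 6. Values below are log2 intensities relative to the 75th percentile of their own array, and a difference is overexpression minus control. On this scale the median difference over all 39295 tested probes was 0.25 (log2), against 0.05 after quantile normalization, which gives every array the same distribution. Changes are therefore also given with quantile normalization where a direction rests on the scale. Neither of the 2 probes of Ppargc1a, which encodes PGC-1α, passed the filter for testing. The probe A_51_P279038 read -6.21, -6.37 and -7.71 on the control arrays and -5.70, -5.28 and -5.90 with overexpression, a difference of 1.14. Its unscaled intensities were 21.8, 19.6 and 9.06 against 22.3, 22.1 and 21.2, so the difference rests on the scaling and on the dim control replicate 3. The probe A_55_P2745394 differed by 0.26 and its groups overlapped. Each probe was above background on 2 control arrays and on 2 and 1 overexpression arrays, respectively. A probe outside the coding sequence would not see the transgene, and the place of these probes in the transcript is not given in the sources used here. These probes therefore give no check of the labels, and directions are given for the arrays as labelled.

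All 8 microglia and macrophage markers examined were well above background on all 6 arrays. By their brightest tested probes 4 of them (Csf1r, Cd68, Tyrobp and Itgam) passed the test as higher with overexpression and 0 as lower, beside 34.6% and 18.4% of all 17182 genes counted by their brightest tested probe. After quantile normalization 0 were higher and 1, Adgre1, was lower (limma adjusted p = 0.0202), beside 21.2% and 20.9% of genes. The sum of the 8, in multiples of the 75th percentile, was 81.4 to 85.4 on the control arrays and 116.8 to 137.8 with overexpression. Of 15 markers of other cell types, 11 were above background on every array, and of the 13 tested 7 passed as higher and 2 as lower, against 4 and 2 after quantile normalization. The sum of these 15 was higher too, at 40.5 to 45.9 on the control arrays and 63.7 to 82.2 with overexpression. The bright ones were the fibroblast genes Col1a1 and Dcn and 1 of the 2 probes of Snap25, while Ms4a1, a defining B cell gene, was not well above background on any array. The dendritic cell markers bear on the members most, since dendritic cells also carry CD80, CD86 and CD83. Flt3 was lower under both scalings (log2 fold changes -1.44 and -1.54, limma adjusted p = 0.000304 and 0.000307), whereas Zbtb46 and Itgax differed by 0.02 and 0.06. The part of other cells in the values of the members was not tested, and in bulk RNA fewer cells of a type and less RNA per cell cannot be told apart.

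All 15 probes of the 9 genes were well above background on all 6 arrays, and all 15 were tested. Cd86, Icosl, Tnfsf9, Cd83 and, on 2 of its 3 probes, Cd80 fell, whereas Cd274, Pdcd1lg2, Cd40 and Icam1 did not pass the test. By limma's moderated test with Benjamini-Hochberg adjustment over all tested probes, 9 of the 15 probes were lower, from 5 genes, and 0 were higher. In this comparison 53.5% of all tested probes passed in either direction, 35.2% as higher and 18.2% as lower. After quantile normalization the same 9 probes were lower and 0 higher, against 20.4% of all probes lower. The split of all calls moved with the scale, from 13851 higher and 7167 lower to 8910 higher and 8032 lower. The 9 called probes had log2 fold changes from -0.93 to -0.47, or 1.39- to 1.91-fold lower, and the 6 others ranged from -0.30 to 0.53. The median over the 15 probes was -0.54, and 13 of them lay below the median of all tested probes. Of the 14 probes with values on every array, 10 were lower on all overexpression arrays than on all control arrays and 1 was higher, beside 22.2% and 41.4% of all such probes. The 9 called probes are among these 10, so their lower values within each slide follow from this and add no support. They differed by -0.94 to -0.46 on slide 1 and by -0.92 to -0.40 in the single pair of arrays on slide 2.

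**Figure D1:**
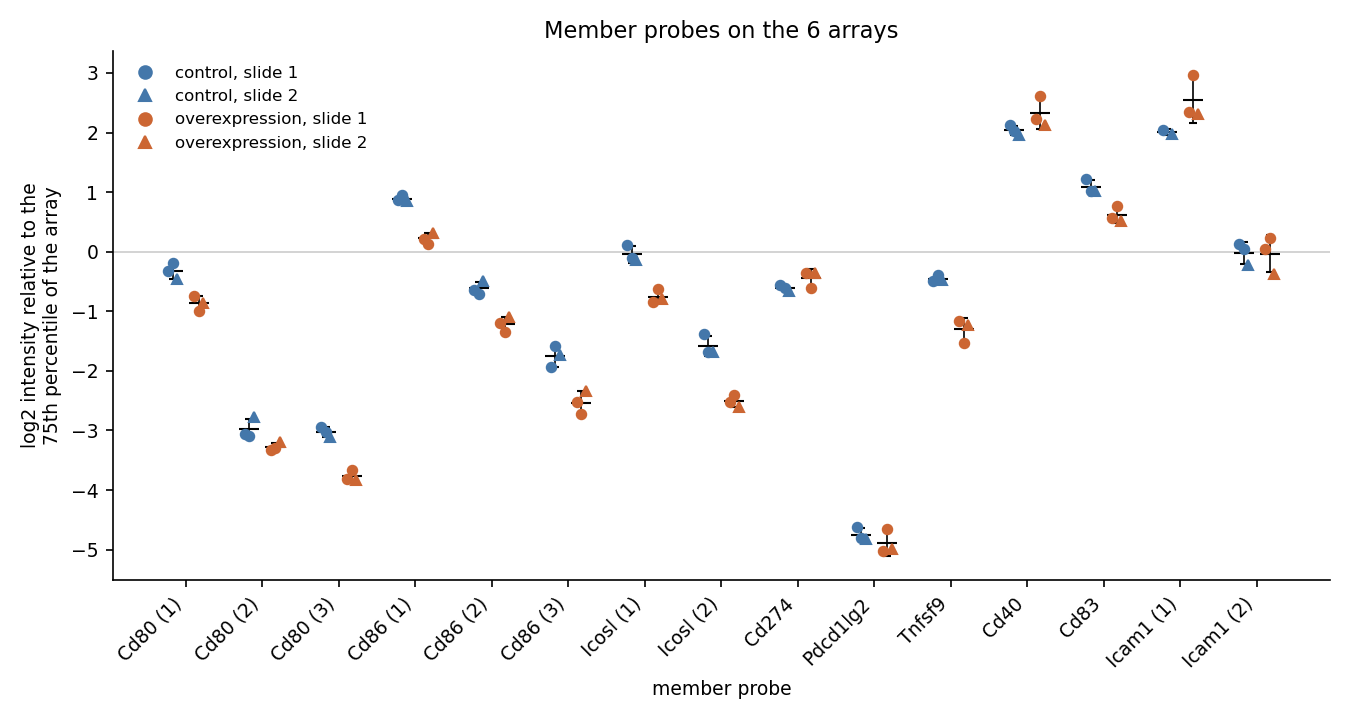
Log2 intensity of the 15 member probes (horizontal axis, ordered by family and, within a gene, numbered from the brightest) relative to the 75th percentile of each array, for 3 control arrays (blue) and 3 overexpression arrays (orange). Circles are arrays of slide 1, triangles arrays of slide 2, the bar is the mean and the whisker the SD. The groups of Cd86, Icosl, Tnfsf9, Cd83 and all 3 Cd80 probes are apart, those of Cd274, Pdcd1lg2 and the dimmer Icam1 probe overlap, and the level of a probe cannot be set against that of another probe.

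Short regulatory patterns were searched before the start sites of 5 members, and no window was at hand for the other members. RefSeq windows on assembly GRCm38.p6 were at hand for Cd80, Cd274, Pdcd1lg2, Icosl and Icam1, each with the 250 bases before the listed start. They were searched on both strands for the NF-κB consensus of κB sites, the AP-1 site TGANTCA, the core GAAANNGAA of the interferon-stimulated response element and the estrogen-related receptor element TCAAGGTCA. The 4 windows that hold a match are printed 5′ to 3′ on the plus strand with the match in capitals. Those of Cd80 and Icosl belong to members that fell, and those of Cd274 and Pdcd1lg2 to members that did not pass the test.
Cd80, chr16:38458683-38458932: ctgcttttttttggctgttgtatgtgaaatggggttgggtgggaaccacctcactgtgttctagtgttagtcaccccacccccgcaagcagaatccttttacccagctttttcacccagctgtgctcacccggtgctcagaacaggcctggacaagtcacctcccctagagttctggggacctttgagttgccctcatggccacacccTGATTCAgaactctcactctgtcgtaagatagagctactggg
Icosl, chr10:78069118-78069367: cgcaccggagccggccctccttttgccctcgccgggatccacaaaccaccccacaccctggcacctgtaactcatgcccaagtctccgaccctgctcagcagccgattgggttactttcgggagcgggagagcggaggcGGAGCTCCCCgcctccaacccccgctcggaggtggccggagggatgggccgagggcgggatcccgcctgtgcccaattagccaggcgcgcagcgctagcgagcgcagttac
Cd274, chr19:29367188-29367437: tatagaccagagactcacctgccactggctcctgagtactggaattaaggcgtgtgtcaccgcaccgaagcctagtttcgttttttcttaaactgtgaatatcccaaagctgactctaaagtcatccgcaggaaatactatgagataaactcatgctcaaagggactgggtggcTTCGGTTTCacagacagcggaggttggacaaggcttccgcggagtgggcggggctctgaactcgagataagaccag
Pdcd1lg2, chr19:29410669-29410918: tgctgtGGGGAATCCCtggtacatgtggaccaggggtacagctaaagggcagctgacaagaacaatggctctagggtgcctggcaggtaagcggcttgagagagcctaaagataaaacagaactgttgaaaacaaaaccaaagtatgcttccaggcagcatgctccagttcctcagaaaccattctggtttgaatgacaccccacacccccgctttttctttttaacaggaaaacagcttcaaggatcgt
The capitals mark an AP-1 match in Cd80, its first base at position -42 from the start, a κB match in Icosl at -111 and a κB match in Pdcd1lg2 at -244. In Cd274 they mark the interferon response core at -76. The matches in Icosl and Cd274 read as the searched letters on the opposite strand. The window of Icam1, chr9:21015690-21015939, held no exact match, and the estrogen-related receptor element was in none of the 5. The Icam1 window does hold tggaaattcc, which differs from the searched κB consensus, GGGRNNYYCC, in the first base only. Near matches were not searched in any window, so a missing match does not show that a site is absent. Among all 32851 windows of the table, 7.25% held the κB consensus, 6.75% the AP-1 letters, 7.13% the interferon core and 0.387% the estrogen-related receptor element. The windows of Cd80 and Cd274 lie within the annotated span of their genes, before a start other than the outermost. A match describes the letters in the window only, and members that fell and members that did not pass both hold a κB match.

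The classical B7 ligands Cd80 and Cd86 were lower together. Cd80 (NM_009855; GRCm38 chr16:38457430-38495958) was read by 3 probes, whose places in the transcript are not given in the sources used here. The brightest, A_55_P2001218, had values of -0.33, -0.19 and -0.46 on the control arrays and -0.75, -0.99 and -0.86 with overexpression. The groups did not overlap, and the level was 1.46-fold lower (log2 fold change -0.54, SE 0.14, limma adjusted p = 0.014). The probe A_66_P130432 read -2.95, -3.03 and -3.11 against -3.81, -3.66 and -3.83. It was 1.67-fold lower (log2 fold change -0.74, SE 0.13, limma adjusted p = 0.00323), and by less after background correction by normexp (-0.35), where it still passed. The probe A_52_P244005 read -3.05, -3.09 and -2.78 against -3.32, -3.29 and -3.20, again with no overlap. Its log2 fold change of -0.30 (SE 0.14) did not pass (limma adjusted p = 0.105), nor did it after quantile normalization (-0.39, limma adjusted p = 0.057), and with normexp and the 75th percentile it was -0.038 (limma adjusted p = 0.822). The 3 probes of Cd80 thus shared a direction and differed in size, and the call of the brightest was lost without control replicate 2 (log2 fold change -0.47, limma adjusted p = 0.057).

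Cd86 (NM_019388; chr16:36568956-36666158), the ligand that most antigen-presenting cells show before CD80, was lower on each of its 3 probes. The brightest, A_52_P145861, read 0.86, 0.96 and 0.84 on the control arrays and 0.22, 0.14 and 0.32 with overexpression. Every control array was thus above every overexpression array, and the level was 1.58-fold lower (log2 fold change -0.66, SE 0.13, limma adjusted p = 0.00453). On A_51_P174723 the values were -0.64, -0.71 and -0.50 against -1.20, -1.34 and -1.10, a log2 fold change of -0.60 (limma adjusted p = 0.00866). On A_55_P1971951 they were -1.94, -1.59 and -1.74 against -2.53, -2.73 and -2.34, a log2 fold change of -0.78 (limma adjusted p = 0.00602) that was -0.44 with the same background correction and still passed. The 3 probes spanned 1.51- to 1.71-fold, and all 3 passed with quantile normalization (log2 fold changes -0.56 to -0.80).

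Icosl (NM_015790; chr10:78069368-78079525), whose product ICOS ligand binds ICOS on activated T cells, had the greatest fall among the 15 probes. Its dimmer probe A_52_P432647 read -1.39, -1.68 and -1.68 on the control arrays and -2.53, -2.41 and -2.60 with overexpression. This was 1.91-fold lower (log2 fold change -0.93, SE 0.14, limma adjusted p = 0.00196). The brighter probe A_55_P2747083 read 0.12, -0.11 and -0.13 against -0.84, -0.62 and -0.80. It was 1.64-fold lower (log2 fold change -0.71, SE 0.14, limma adjusted p = 0.00498). The groups were apart on both probes, and both passed under all alternatives in which they were fitted (limma adjusted p up to 0.0238).

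Neither coinhibitory ligand passed the test. Cd274 (NM_021893; chr19:29362107-29388095) encodes PD-L1, and its probe read -0.56, -0.61 and -0.65 on the control arrays and -0.36, -0.61 and -0.35 with overexpression. Overexpression replicate 2 lay among the control values while the other 2 lay above them. The log2 fold change of 0.17 (95% confidence interval -0.15 to 0.48) did not pass (limma adjusted p = 0.319), and it was 0.20 after quantile normalization (limma adjusted p = 0.222). Without overexpression replicate 2 it was 0.25 and did not pass (limma adjusted p = 0.123), and with array weights, whose estimation did not converge, 0.25 passed (limma adjusted p = 0.0191).

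Pdcd1lg2 (NM_021396; chr19:29410919-29472927), the PD-L2 gene, lies 22823 bases beyond Cd274 in the annotation. It had the lowest signal of the 15 probes, with unscaled intensities of 58.0 to 67.0 on the control arrays and 34.0 to 39.8 with overexpression. The scaled values were -4.62, -4.81 and -4.82 against -5.03, -4.65 and -4.995, and the groups overlapped through overexpression replicate 2. The log2 fold change was -0.14 (95% confidence interval -0.50 to 0.21, limma adjusted p = 0.45), and -0.34 after quantile normalization (limma adjusted p = 0.101). With normexp background correction the sign turned to 0.29 (limma adjusted p = 0.0939), and with array weights, whose estimation did not converge, -0.26 passed as lower (limma adjusted p = 0.0254). No direction can be given for PD-L2 at this signal.

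**Figure D2:**
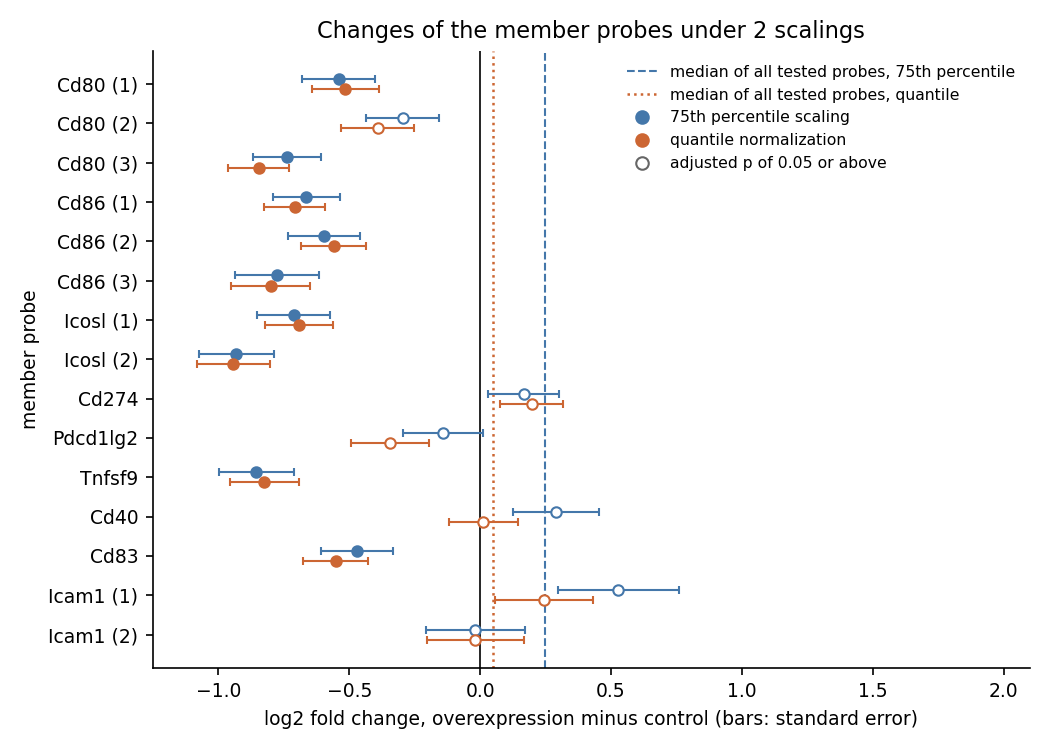
Log2 fold change of each member probe, overexpression minus control, with its standard error (horizontal bars), under scaling by the 75th percentile (blue) and quantile normalization (orange). Filled points passed the threshold of 0.05 on the adjusted p and open points did not, and the dashed and dotted lines mark the medians of all tested probes, 0.25 and 0.05. The 9 filled probes lie between -0.93 and -0.47 under the former scaling and Cd40 moves from 0.29 to 0.01 with the scale.

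In the TNF family, the ligand gene Tnfsf9 was lower and the receptor gene Cd40 did not pass the test. The difference between these 2 genes was not tested. Tnfsf9 (NM_009404; chr17:57105287-57107758) encodes 4-1BB ligand, which signals to 4-1BB on activated T cells. It read -0.49, -0.39 and -0.47 on the control arrays and -1.17, -1.53 and -1.22 with overexpression, with the values of the groups far apart relative to their SDs of 0.05 and 0.20. The level was 1.81-fold lower (log2 fold change -0.85, SE 0.14, limma adjusted p = 0.00289). This probe passed under all 21 alternatives fitted for it, with log2 fold changes from -0.97 to -0.74.

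Cd40 (NM_011611; chr2:165055614-165071654), the receptor through which CD40 ligand licenses antigen-presenting cells, did not fall. It read 2.12, 2.03 and 1.96 on the control arrays and 2.23, 2.62 and 2.13 with overexpression. All overexpression values lay above all control values on this scale, and replicate 2 was the highest. The log2 fold change of 0.29 (95% confidence interval -0.09 to 0.67) did not pass (limma adjusted p = 0.163) and was near the median of all probes. It was 0.01 after quantile normalization (95% confidence interval -0.30 to 0.33, limma adjusted p = 0.948) and 0.14 without overexpression replicate 2.

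Cd83 (NM_009856; chr13:43785112-43803133), a marker of mature dendritic cells that keeps MHC class II and CD86 at the cell surface, was lower. It read 1.22, 1.02 and 1.02 on the control arrays and 0.57, 0.76 and 0.52 with overexpression. The groups did not overlap and the level was 1.39-fold lower (log2 fold change -0.47, SE 0.14, limma adjusted p = 0.0222). It was the smallest of the 9 called changes and the least firm. It lost its call in 6 alternatives, among them 4 of the 6 that left out an array (control replicates 1 and 2, log2 fold changes -0.40 and -0.50, and overexpression replicates 1 and 3, -0.45 and -0.42), with limma adjusted p up to 0.0826 over its alternatives.

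Icam1 (NM_010493; chr9:21015940-21028814), the adhesion molecule that binds LFA-1 and steadies the contact with the T cell, was read by 2 probes that stood apart. The brighter, A_52_P613241, had values of 2.04 and 1.98 on control replicates 1 and 3 and 2.34, 2.97 and 2.31 on the overexpression arrays. The spot of control replicate 2 was marked as an outlier by the scanner software and left out. The log2 fold change of 0.53 (SE 0.23) did not pass (limma adjusted p = 0.0918), and it was 0.25 after quantile normalization (limma adjusted p = 0.331). With that spot kept it was 0.58 and passed (limma adjusted p = 0.0374), it also passed with a variance trend and robust estimation (limma adjusted p = 0.0424), and without overexpression replicate 2 it was 0.31. The dimmer probe A_51_P408506 read 0.13, 0.05 and -0.22 against 0.04, 0.23 and -0.37, with overlapping groups and a log2 fold change of -0.02 (limma adjusted p = 0.938). The brighter probe was thus positive in all 18 alternatives fitted for it (0.24 to 0.65) and passed in 2 of them. The dimmer probe passed in none and changed sign in 5 of 19, so no direction held on both Icam1 probes.

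Among all tested probes the called members were moderate. The distribution of log2 fold changes over all tested probes rises on its right side to a peak above the median and trails off to the left, and the called members lie on the left shoulder. Probes called and at least 1 below the median (log2) made up 12.1% of all tested probes, and 3 of the 15 member probes were among them: A_52_P432647 of Icosl, A_55_P1971951 of Cd86 and Tnfsf9.

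**Figure D3:**
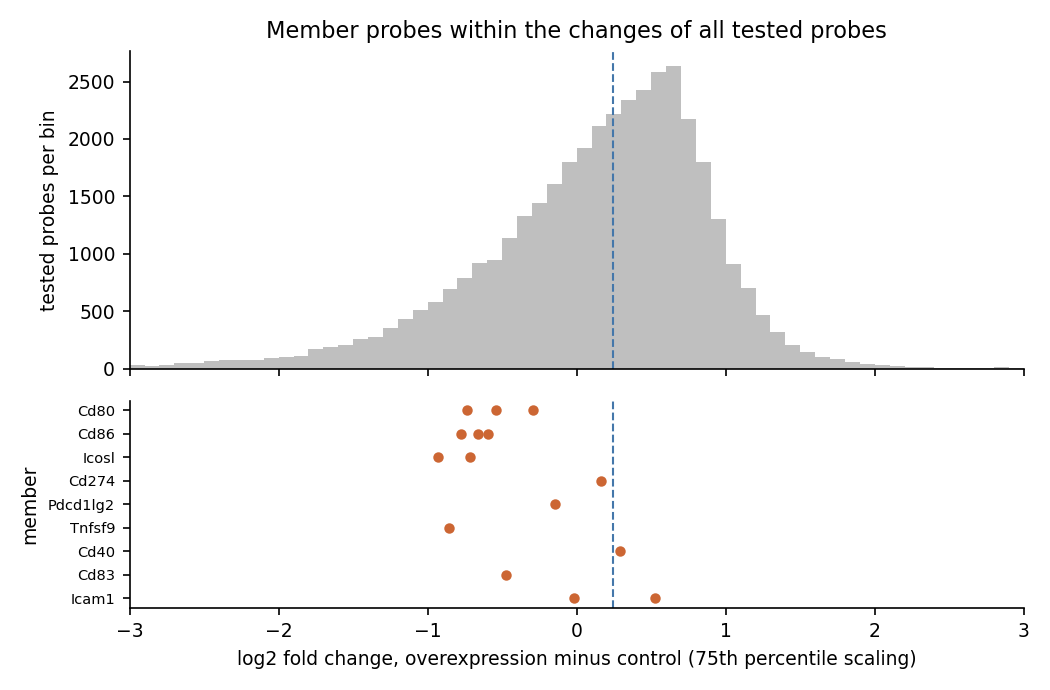
Upper panel, number of tested probes in each bin of 0.1 (log2) of the difference, overexpression minus control, scaled by the 75th percentile; the few probes beyond the axis are not drawn. Lower panel, the 15 member probes by gene, on the same axis, with the dashed line at the median of all tested probes, 0.25; 13 of the 15 lie to its left.

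Because every overexpression array was dimmer, the members were also compared with each other inside each array, where a scaling by 1 number per array cancels. The called genes, each by its brightest probe, were set against Cd274 and Cd40, which did not pass, an alternative chosen after the data were seen. Relative to Cd274, Cd80 differed by -0.71 (SE 0.08), Cd86 by -0.83 (SE 0.07), Cd83 by -0.64 (SE 0.17), Icosl by -0.88 (SE 0.16) and Tnfsf9 by -1.02 (SE 0.05) between the groups. Relative to Cd40 the differences were -0.83, -0.95, -0.76, -1.003 and -1.14 in the same order. The groups did not overlap in any of these 10 comparisons. Both sides were chosen by their calls on the same arrays, so the values are a description with no test, and they do not show that Cd274 or Cd40 did not change. After quantile normalization the differences from Cd40 were smaller, from -0.53 for Cd80 to -0.84 for Tnfsf9.

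**Figure D4:**
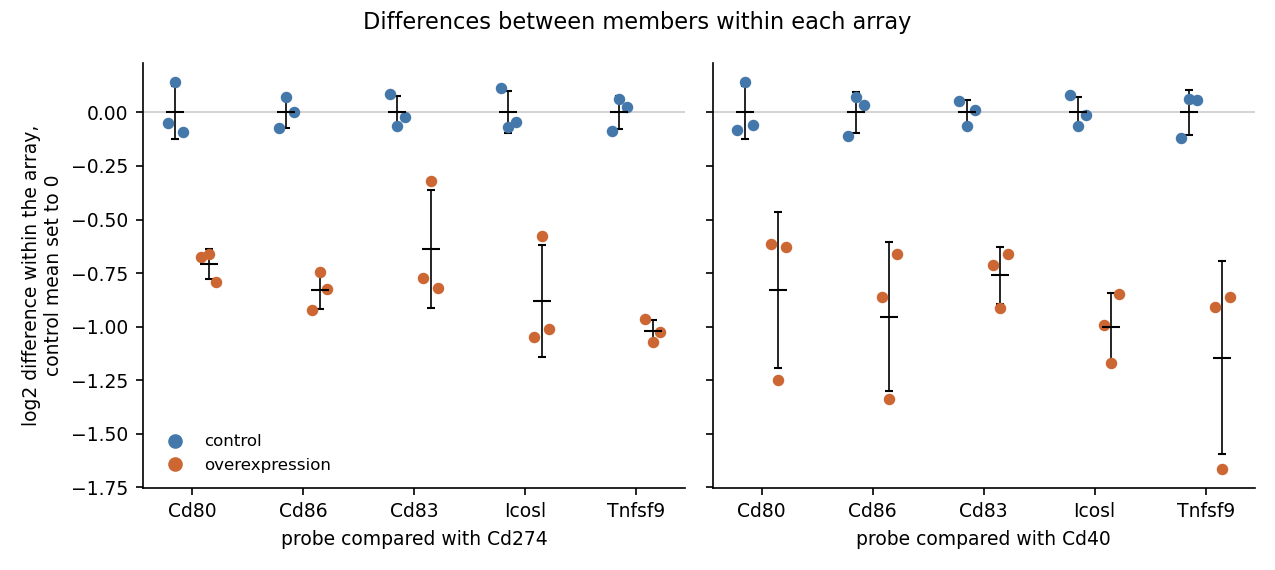
Difference in log2 intensity between the brightest probe of each called gene and Cd274 (left) or Cd40 (right) inside each array, shifted so that the control mean of each gene is 0. Points are arrays (3 control in blue, 3 overexpression in orange), bars the mean and whiskers the SD; all overexpression points lie below all control points for every gene in both panels.

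Other surface molecules of the T cell contact did not fall as a list. A list of 27 B7, butyrophilin, TNF, nectin and adhesion genes had 19 genes with a tested probe, each counted by its brightest. Of these, 5 passed as higher and 2 as lower, beside 34.6% and 18.4% of all 17182 genes counted the same way. After quantile normalization 3 were higher and 1 lower, beside 21.2% and 20.9% of genes. The median of the list was 0.30, near that of all genes, 0.23. Tnfsf14, which encodes LIGHT, a TNF family ligand of HVEM, was the gene that passed at least 1 below the median of all tested probes. Its mean fell from -0.48 (SD 0.35, n = 3) to -1.56 (SD 0.46, n = 3), a log2 fold change of -1.08 (SE 0.27, limma adjusted p = 0.0116). The others that passed, named after their values were seen, were Tnfsf18, Ceacam1, Tnfrsf14, Itgam and Btn1a1 as higher and Icam2 as lower. Tnfsf18 and Ceacam1 were dim. Unscaled intensities of Tnfsf18 were 28.4 to 32.7 on the control arrays and 39.5 to 41.0 with overexpression. Those of Ceacam1 were 26.96 to 36.3 against 36.4 to 39.2, so its difference rests largely on the scaling. The other Ceacam1 probe was well above background on 1 control array only and differed by -0.38. Both genes were still called after quantile normalization (0.83 and 0.67). Btn1a1, Itgam and Icam2 were not called after quantile normalization, where Btn1a1 also turned its sign (0.49 to -0.15). Probes of a gene disagreed, for example, for Nectin2, whose brighter probe differed by 0.33 and the dimmer by -2.28. Others were Alcam (0.30 and -1.17), Vsir (0.28 and -0.71) and Btn2a2 (0.25 and -0.54, neither called). The dimmer Itgam probe differed by 0.09 and did not pass, against 0.75 on the brighter. The other Btn1a1 probe was not well above background on any array. The list's count therefore depends on the probe. Of the 8 genes with no tested probe, Vcam1, Cd70 and Tnfsf4 are examples.

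The adaptors below CD40 and the proteins that remove ligands from the surface formed the second list, and all 12 had a tested probe. Of these, 5 passed as lower and 3 as higher, beside 18.4% and 34.6% of all genes counted by their brightest probe. After quantile normalization 5 were lower and 1 higher, beside 20.9% and 21.2% of genes. Of the 5 lower genes, 4 encode adaptors that carry TNF receptor signals. Traf3, which holds noncanonical NF-κB signalling in check, had a control mean of 0.30 (SD 0.19, n = 3) and an overexpression mean of -0.66 (SD 0.29, n = 3), a log2 fold change of -0.96 (SE 0.19, limma adjusted p = 0.00466). Traf1 had a log2 fold change of -0.83 (limma adjusted p = 0.00734) and Traf2, its partner at CD40 and 4-1BB, of -0.77 (limma adjusted p = 0.00538). Traf5 and Marchf8, a ubiquitin ligase that takes CD86 and other proteins off the surface, were the other lower genes, and Map3k14, Nfkb2 and Marchf1, the ubiquitin ligase of CD86 and MHC class II, the higher ones; these 5 were named after their values were seen. Nfkb2 and Marchf1 were not called after quantile normalization (0.13 and 0.14). The brighter probe of Traf6 by its mean over all arrays differed by -0.03 and did not pass (limma adjusted p = 0.86). The other differed by -0.90 and passed (limma adjusted p = 0.00801, and 0.00736 after quantile normalization). On the control arrays this other probe was the brighter, with a mean of -2.75 against -3.14, so the count of Traf6 as not called depends on the probe. Map3k14 and Nfkb2 were higher on their brighter probes only (0.79 and 0.64). Their dimmer probes differed by 0.10 and 0.08 and did not pass (limma adjusted p = 0.625 and 0.612), so these calls depend on the probe. Cmtm6 and Cmtm4, which keep PD-L1 on the surface, did not pass, with log2 fold changes of 0.16 and 0.21.

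**Figure D5:**
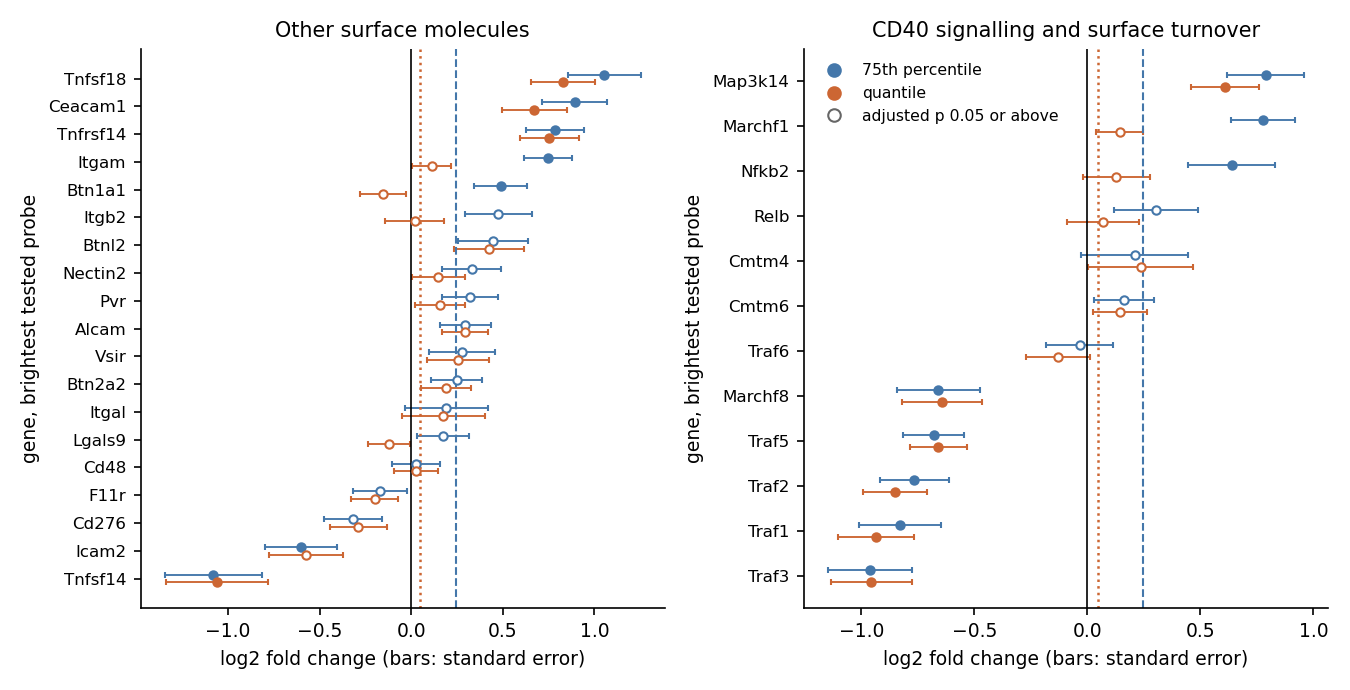
Log2 fold change with standard error (bars) of the brightest tested probe of 19 other surface molecules (left) and 12 genes of CD40 signalling and surface turnover (right), scaled by the 75th percentile (blue) and by quantile normalization (orange). Filled points passed an adjusted p of 0.05, and the dashed and dotted lines mark the medians of all tested probes, 0.25 and 0.05. On the left 5 genes passed as higher and 2 as lower, and on the right 3 and 5, before quantile normalization.

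The receptors on the T cell side were looked up by detection. Cd28, Ctla4, Pdcd1 and Tnfrsf9 were well above background on all 6 arrays, Cd40lg on 5, and Icos on none. The members of this group that passed, Cd40lg, Tnfrsf9 and Pdcd1, are given with values although these were chosen after they were seen. Cd40lg, the ligand of CD40, was dim, with unscaled intensities of 19.9 to 25.3 on the control arrays and 30.5 to 44.9 with overexpression. Its log2 fold change was 1.34 (limma adjusted p = 0.00259), and 1.095 after quantile normalization (limma adjusted p = 0.00301). Tnfrsf9, the receptor of 4-1BB ligand, was read by 2 probes, of which the brighter had values of 3.04, 2.91 and 2.74 on the control arrays and 3.63, 3.95 and 3.42 with overexpression (log2 fold change 0.78, limma adjusted p = 0.00792). Its dimmer probe A_55_P2831060 had a log2 fold change of 0.38 (limma adjusted p = 0.0289). Neither was called after quantile normalization (0.31 and 0.03, limma adjusted p = 0.115 and 0.85), and the ligand gene Tnfsf9 was lower under both scalings. Pdcd1, the PD-1 gene, read -1.91, -2.11 and -2.24 against -4.50, -3.99 and -4.80, a 5.08-fold fall (log2 fold change -2.34, limma adjusted p = 0.000254) that kept its size after quantile normalization (-2.44). Of the T cell markers Cd3e, Cd4 and Cd8a, Cd8a was lower and Cd4 higher under both scalings by their brightest probes, Cd3e was higher but not called after quantile normalization, and what part other cells have in these values was not tested.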

How the data were processed

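RNA of 6 LPS-stimulated BV2 samples was measured on Agilent arrays. The authors' scanner software (Feature Extraction 11.5.1.1 per the file headers) gave the background-subtracted intensity of each spot, and the deposited intensity had not been normalized between arrays. The labels name the dye Cy3 and the methods Cy5, and the files hold the green channel. The authors also deposited normalized log2 values, made in GeneSpring by a procedure not given in the sources used here and used here as an alternative. The normexp alternative used median spot signals, since the files hold no mean signal.

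Each intensity was put on the log2 scale and set against the 75th percentile of the spots of its array, controls apart. Outlier spots (149 to 1590 per array) were left out, repeated spots averaged and no spot was saturated. A probe was tested with at least 2 values per group and a signal well above background on all 3 arrays of a group. In R 4.3.3, limma 3.58.1 (functions lmFit and eBayes) compared the groups. The p-values were two-sided, adjusted by Benjamini-Hochberg over 39295 probes and held against 0.05, and the procedure was tested on simulated data. Genes were named through RefSeq accessions on GRCm38.p6, since the array design names an older assembly. Members, lists and tests were chosen with earlier results of these data known. Every member was named with each probe, and of the 2 lists the genes that passed with a size of at least 1 relative to the median of all tested probes. Plots were made with Python 3.11.15 and matplotlib 3.10.9. The number of arrays limits the precision.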

Additional observations from a re-analysis of the deposited data

How the results depend on the processing

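The count of member probes past the threshold was 9 (0 higher and 9 lower), and it ranged from 7 to 9 with each array left out in turn. It was 9 with either other scaling or background correction and with the authors' log2 values. The filter on all arrays and the slide as a block also gave 9. It was 8 within slide 1 and without a filter on dim probes. With outlier spots kept or with a variance trend and robust estimation it was 10, of which 9 were lower and 1, the brighter Icam1 probe, higher. With array weights, which did not converge, it was 12, of which 11 were lower and 1, that of Cd274, higher. Counted by genes in place of probes, 5 of the 9 members passed by the brightest probe and 5 by the mean of the probes, all as lower. Of all 17182 genes, 9643 and 9284 passed in either direction, 3343 and 3507 of them as lower. The brighter Icam1 probe could not be fitted within slide 1 or without control replicate 1 or 3, for lack of control values, and slide 2 alone gives values with no test. Whether the replicate numbers pair the samples could not be decided. The deviations of same-numbered arrays correlated at -0.21, 0.00 and 0.59, and control replicate 1 correlated best with overexpression replicate 2 (0.53). The highest value, 0.59, belongs to the replicates 3, which share slide 2, and 3 arrays per group are too few to separate pairing from slide or array quality. Replicates 1 and 2 lie on slide 1 and replicate 3 on slide 2. With the replicate block, 9 member probes passed, as did 22815 of all probes, 8 of the other surface molecules and 8 of the signalling genes.

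Over all probes 21018 passed, and 15566 to 20923 with an array left out. By the brightest probe of each gene 9643 passed and by the mean of its probes 9284, each of 17182 genes tested. With all probes kept, the count moved with other settings. It was 21550 with outlier spots kept, 22186 with a variance trend and robust estimation and 28929 of 39295 with array weights. The higher member counts in these settings thus came with more calls over the whole array. Of the other surface molecules 7 passed, 5 to 8 with an array left out, 4 with quantile normalization, 4 with the authors' values, 12 with array weights and 12 when every tested probe was counted. Of the signalling genes 8 passed, 6 to 8 with an array left out and 14 when every tested probe was counted. The dimmer Icam1 probe changed sign with array weights (0.019), within slide 1 (0.047), without control replicate 1 (0.054), without control replicate 2 (0.012) and without overexpression replicate 3 (0.15), and it ranged from -0.15 to 0.15 with an array left out. Pdcd1lg2 changed sign with normexp and the 75th percentile (0.29). Calls of members were lost for Cd83 in 6 alternatives and for the brightest Cd80 probe in 1. With array weights the probes of Cd274 (0.25), Pdcd1lg2 (-0.26) and A_52_P244005 of Cd80 (-0.30) passed. The cause of these moves was not tested. Dim probes such as that of Pdcd1lg2 are limited by the background.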
